A study of Gallus gallus with 9 samples.

Results

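The step from the base to the middle of the chick basilar papilla was examined in 6 of the 9 deposited RNA-seq libraries, 3 from the base and 3 from the middle. A gene was taken up where its mean FPKM (fragments counted on a transcript, scaled to its length and to the size of the library) reached 1 in the base or in the middle, and 12901 of 24880 annotated genes did so. At the threshold, *RD3L* was just inside with a mean FPKM of 1.00 in the base and 0.746 in the middle, and *HMGI-C* was just outside with 0.437 and 0.9997. All libraries came from untreated chickens at post-hatch day 1, and the labels name no strain. Each basilar papilla, freed from the duct, was cut into a basal, a middle and an apical piece, and a replicate of a region pooled 8 cochleas of 4 chickens. A library is therefore an average over animals and over all cell types of a piece of tissue. The 3 apex libraries entered the estimate of the spread and their values are given beside the others.

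The basilar papilla is the hearing organ of birds, and its base responds to high and its apex to low sound frequencies. Hair cells carry a bundle of actin-filled stereocilia, whose deflection opens mechanotransduction channels at the tip links, and they release glutamate at ribbon synapses onto neurons of the acoustic ganglion. Supporting cells surround the hair cells and secrete the tectorial membrane. Beneath the sensory epithelium lie nerve fibres with their Schwann cells, vessels, and the cartilaginous plates that frame the organ, and RNA of all of them was in the samples.

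The deposited table holds no read counts, so the depth of each library is unknown. The study gives only a range of read pairs over its replicates. The 6 libraries had summed FPKM between 695651 and 741975. By the steps in which low values move, middle 3 held 1.61 times the fragments of base 1, with the other 4 libraries between 1.08 and 1.21 times. This estimate rests on low values alone, and 1.61 is a wider gap than the ends of the study's range span. Neuron markers set replicate number 2 apart. The summed FPKM of 30 neuron genes was 724, 1682 and 807 in base 1, 2 and 3, and 753, 5108 and 1427 in middle 1, 2 and 3. Middle 2 was thus the richest in neuron RNA and base 2 the second richest of the 6. The other libraries ranged from 724 to 1427. Same-numbered libraries also deviated together from their region means, so a second fit took the replicate number as a blocking factor (the block below), and its values are given where they change a call or move a count by more than 1.5 times. Nothing in the labels states that same-numbered libraries came from the same chickens. The table gives some overlapping genes 1 common locus, and a named gene of which this holds is said to share its locus entry, since fragments may have been split between such genes.

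Differentially expressed genes (DEGs) had an adjusted p under 0.05 in limma on log2(FPKM + 1), over all 12901 genes, together with mean FPKM at least 1.5 times apart. Of the genes tested, 570 (4.42%) were DEGs. Higher in the middle were 382 (2.96%), with a median log2 fold change of 0.90 and a median ratio of 2.17, and lower were 188 (1.46%), with a median log2 fold change of -0.71 and a median ratio of 0.583. Of the DEGs, 209 of those higher and 44 of those lower differed at least 2-fold. With the replicate block, 1281 genes were DEGs, 989 higher (7.67%) and 292 lower (2.26%), and all 570 were among them. Counts with the block below are to be read beside these shares over all genes. Without adjustment, 3473 of the 12901 genes had a p under 0.05 in limma without the block, 1683 higher and 1790 lower in the middle. Counts at an unadjusted p below are to be read beside these. Without the block, the count rested on single libraries. It was 71 without middle 3, 82 without base 2, 128 without base 1, 394 without apex 1 (246 of them higher), and between 422 and 691 without any 1 of the other 5 libraries. Without both the block and replicate number 2 in any region it was 5, and with the block and without replicate number 2 it was 1161, 853 higher (6.61%) and 308 lower (2.39%). With the block and without replicate number 3 it was 663, 516 higher and 147 lower. With the block and without 1 of the 6 libraries compared, it ranged from 787 to 1328. The 9 fits without 1 library that are cited below for single genes are those without the block.

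The 3 middle libraries all stood above the 3 base libraries for each of the 382 genes and all below them for each of the 188, against 14.1% and 16.8% of all genes tested. Within the regions, the libraries were not ranked evenly. Base 3 was the highest base library for 81.7% of the genes that rose, against 34.6% of all genes tested, and middle 3 was the highest middle library for 61.8% of them, against 25.5%. Middle 2 was the highest for 30.6%, against 41.2% of all genes. Without middle 2, 305 of the 382 and 145 of the 188 were still called, and with the block and without replicate number 2, 341 and 165 were. The apex libraries share the fit, and the median ratio of apex to middle was 1.10 for the genes that rose, 0.861 for the genes that fell and 0.990 for all genes tested.

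**Figure D1:**
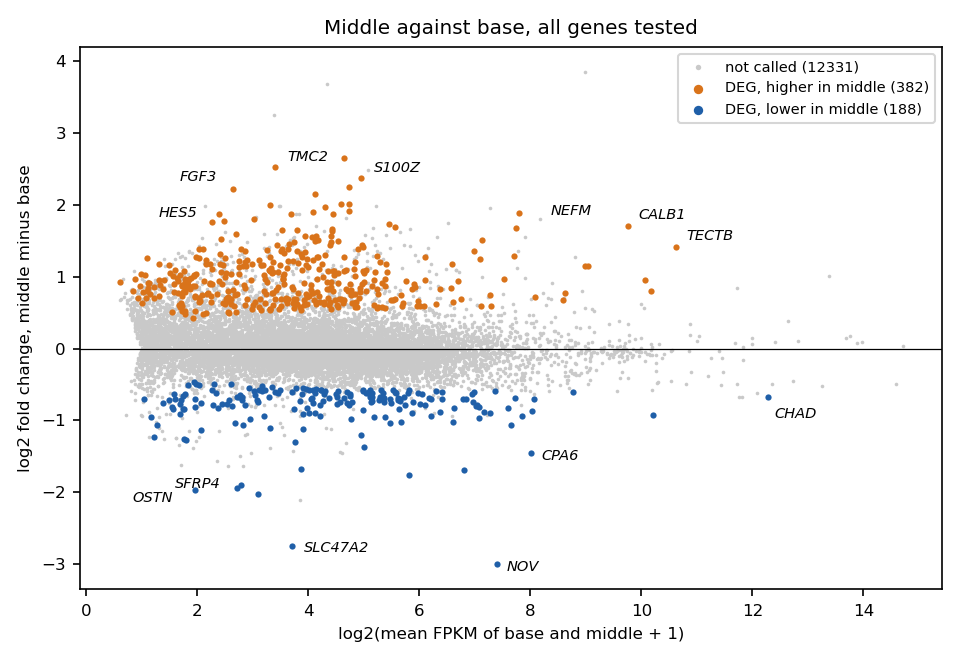
Each point is one of 12901 genes, plotted by its mean FPKM over base and middle (log2 of FPKM + 1) against its log2 fold change, middle minus base. The 382 DEGs higher in the middle are orange and the 188 lower are blue. *NEFM*, a neuron gene with a log2 fold change of 1.80, is labelled as an example of a large difference that was not called without the block.

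The 10 leading genes with a symbol that rose, chosen by fold change with the neuron and Schwann cell lists left out, were *TMC2*, *S100Z*, *FGF3*, *SCN3B*, *CHRNA10*, *TRIM36*, *FGF10*, *SLC6A4*, *NRGN* and *ISL1*. *TMC2* (chromosome 2, 44470401 to 44496991, galGal5, as are all positions here), a component of the mechanotransduction channel of hair bundles, had an FPKM of 1.06, 0.332 and 7.5 in base 1, 2 and 3 and 15.5, 10.8 and 21.7 in middle 1, 2 and 3. It was near 1 or below in base 1 and base 2 and well above that in base 3, which still stayed under every middle library. The log2 fold change was 2.52 ± 0.61 (SE, n = 3 per region here and below), with a ratio of means of 5.41 and an adjusted p of 0.0389. *TMC2* was called in 2 of the 9 fits that left out 1 library. *S100Z* (chromosome Z, 23387605 to 23392488), an S100 family calcium-binding protein, had 7.2, 5.1 and 15.1 in the base and 43.4, 30.7 and 78.2 in the middle, again with base 3 and middle 3 the highest of their regions (log2 fold change 2.37 ± 0.42, adjusted p = 0.0167). *FGF3* (chromosome 5, 17620087 to 17625226), a growth factor of otic induction and patterning, was under 1 in base 1 and base 2, with 0.528, 0.549 and 3.02 against 8.92, 6.4 and 12.2 (log2 fold change 2.22 ± 0.40, adjusted p = 0.0183).

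*FGF10* (chromosome Z, 13974781 to 14032655), a ligand of the same family that is known in the prosensory domain of the ear, had 6.54, 8.39 and 15.8 in the base and 36, 29.2 and 56.6 in the middle, a ratio of 3.96 (adjusted p = 0.0154). *SCN3B*, a beta subunit of voltage-gated sodium channels, had 6.0, 5.81 and 14.7 in the base and 29.2, 30.9 and 50.8 in the middle (ratio 4.18, adjusted p = 0.0159). In FPKM units, every middle library of both genes exceeded base 3 by more than base 3 exceeded the other base libraries. As a ratio, this did not hold for every middle library of either gene. *TRIM36*, a tripartite motif ubiquitin ligase, rose from a mean of 7.38 ± 5.12 (SD) to 29.8 ± 11.1, and *NRGN*, the calmodulin-binding protein neurogranin, from 96.1 ± 57.9 to 348 ± 159. *SLC6A4*, the plasma membrane serotonin transporter, had 4.18, 3.5 and 12.5 in the base and 25.2, 17.7 and 32.9 in the middle (ratio 3.75, adjusted p = 0.0263). The 10 genes had adjusted p-values between 0.0154 and 0.0389, and with the block between 2.31e-04 and 0.00243. They were called in 2 to 6 of the 9 fits that left out 1 library, and none of them was called without base 1, without base 2 or without middle 3 in unblocked fits. With the block, each of the 10 was called in all 6 fits that left out 1 of the libraries compared. *S100Z* and *ISL1* had apex means of 52.5 ± 15.2 and 41.3 ± 8.58, close to their middle means of 50.8 ± 24.6 and 32.9 ± 11.2, whereas the apex mean of *TMC2* was 64.6 ± 20.1.

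**Figure D2:**
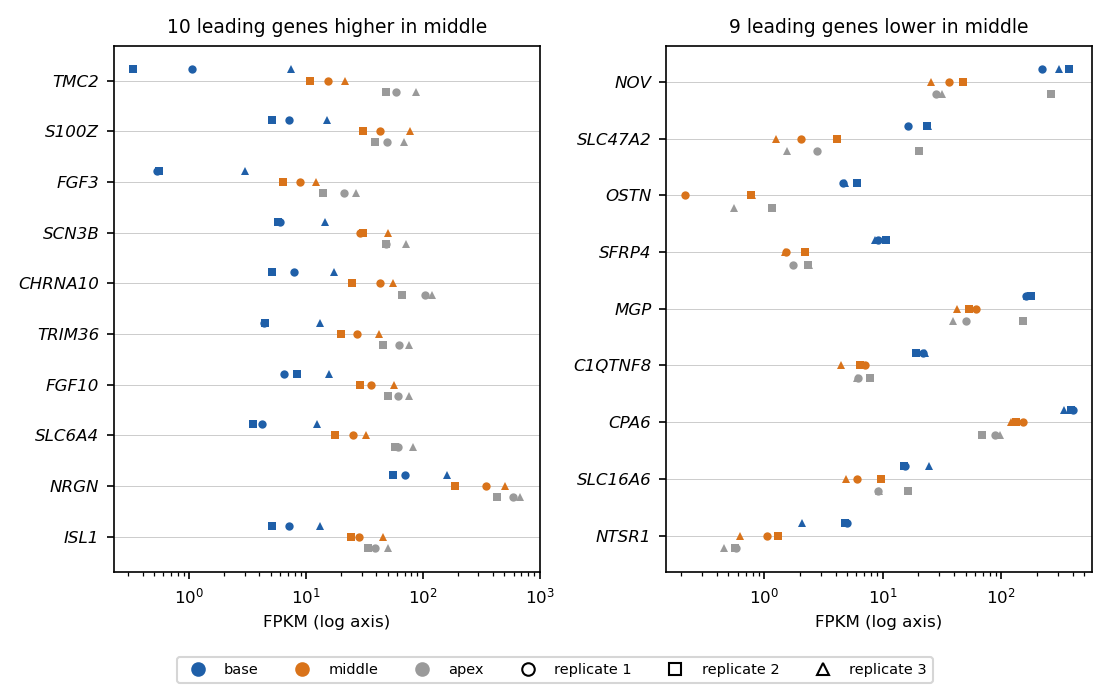
FPKM on a log axis of the 10 DEGs (with a symbol) with the largest and 9 of those with the smallest log2 fold change, one point per library, with base in blue, middle in orange, apex in grey and the replicate number as the symbol. In the left panel base 3 lies to the right of base 1 and base 2 in every gene, as for *TMC2* with 7.5 against 1.06 and 0.332, and in the right panel apex 2 lies near the base level for *NOV*, *SLC47A2* and *MGP*.

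Of the leading genes that fell, 9 are given, *NOV*, *SLC47A2*, *OSTN*, *SFRP4*, *MGP*, *C1QTNF8*, *CPA6*, *SLC16A6* and *NTSR1*. *SFRP4* (chromosome 2, 46310716 to 46320326), a secreted antagonist of Wnt signalling, had an FPKM of 9.05, 10.7 and 8.63 in the base and 1.52, 2.21 and 1.49 in the middle. The base libraries lay close together and far above the middle, and the log2 fold change was -1.94 ± 0.14 (base to middle ratio 5.43, adjusted p = 0.00131). *CPA6* (chromosome 2, 115888640 to 115975593), an extracellular carboxypeptidase, was more abundant, with 399, 384 and 340.3 in the base and 154, 133 and 121 in the middle (base to middle ratio 2.75, adjusted p = 0.00467). *SFRP4*, *CPA6* and *C1QTNF8*, a secreted protein of the C1q and tumour necrosis factor related family with 21.2 ± 1.84 in the base and 6.0 ± 1.38 in the middle, were called in 9 of the 9 fits that left out 1 library.

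*OSTN*, which encodes the peptide osteocrin, a ligand of the natriuretic peptide clearance receptor, had 4.66, 6.04 and 4.77 in the base and was under 1 in all middle libraries (0.216, 0.775 and 0.787). *NTSR1*, a neurotensin receptor, had 5.01, 4.82 and 2.08 in the base and 1.05, 1.32 and 0.62 in the middle, and base 3 was the lowest base library. *SLC16A6*, of the monocarboxylate transporter family, had 15.5, 15 and 24.4 in the base and 6.04, 9.61 and 4.95 in the middle, and shares its locus entry with another gene. For 3 of these genes the apex libraries were split. *NOV* (*CCN3*), a matricellular protein, had 218, 369 and 305 in the base and 36.3, 47.4 and 25.4 in the middle, which did not overlap, and 28.4, 261 and 31.8 in apex 1, 2 and 3. *SLC47A2*, a proton-coupled exporter of organic cations, had 16.4, 23.7 and 24.3 in the base, 2.06, 4.13 and 1.26 in the middle and 2.8, 20.2 and 1.57 in the apex. *MGP*, the matrix Gla protein that inhibits calcification, had 163, 178 and 166 in the base, 61.6, 53 and 42.2 in the middle and 50.1, 153 and 39.4 in the apex. In these 3 genes apex 2 stood near the base level while apex 1 and apex 3 stood near the middle, and the adjusted p-values were 0.0415, 0.0451 and 0.0441, or 0.00627, 0.00675 and 0.0117 with the block. They were called in 2 or 3 of the 9 fits that left out 1 library.

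Markers of the sensory epithelium as a whole were higher in the middle and those of cartilage were lower. The summed FPKM of 9 hair cell markers was 68.4, 54.1 and 126 in base 1, 2 and 3 and 187, 143 and 262 in middle 1, 2 and 3, a ratio of means of 2.39, and 344, 243 and 404 in the apex. The groups did not overlap, base 3 was the highest of the base, and none of the 9 was at 0 in all 6 libraries. Lack of overlap was common, however. The sums of most of the 47 lists did not overlap between base and middle, among them the cell cycle at a ratio of 1.07. Of these markers 3 rose (*SLC17A8*, *ESPN* and *MYO7A*), and 7 did so with the block, among them *OTOF* with 15.4, 11.1 and 38.5 in the base and 55.7, 44.2 and 80.9 in the middle (log2 fold change 1.58 ± 0.42, adjusted p = 0.0533, and 0.00139 with the block). The 9 supporting cell markers summed to 967, 829 and 1544 in the base and 2742, 1942 and 3791 in the middle, a ratio of means of 2.54, and 4 of them rose. *TECTB* alone made up 76.0% to 82.9% of that sum. The other 8 summed to 229, 199 and 332 in the base and 488, 417 and 649 in the middle, a ratio of 2.04 without overlap, and the median log2 fold change of the list was 0.79, with ratios of 1.23 for *SLC1A3*, a glutamate transporter, and 1.31 for *FGFR3*. Without the block, no hair cell marker was called without base 1, base 2 or middle 3 and 6 were without base 3, while 1 supporting cell marker was called without base 2 or middle 3. The 8 cartilage markers summed to 16225, 15274 and 12449 in the base and 11087, 9205 and 8217 in the middle, a ratio of 0.649, without overlap, and 1 of them, *CHAD*, fell, or 2 with the block. *CHAD* and *EPYC* made up 67.6% to 73.1% of the sum, and the ratio of the other 6 was 0.705. *CHAD* lost its call without base 1, base 2, middle 2 or middle 3, or without any 1 apex library, and 2 cartilage markers fell without base 3. In such bulk tissue, fewer cells of a type and less RNA per cell cannot be told apart, and the share of each piece that was sensory epithelium or frame was not measured separately. Each hair cell marker and most supporting cell markers are also on a function list below, among them *SLC17A8*, *ESPN* and *MYO7A*. Those lists and these sums thus share members and are not separate measures. The part of these marker levels in the gene groups below was not tested.

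**Figure D3:**
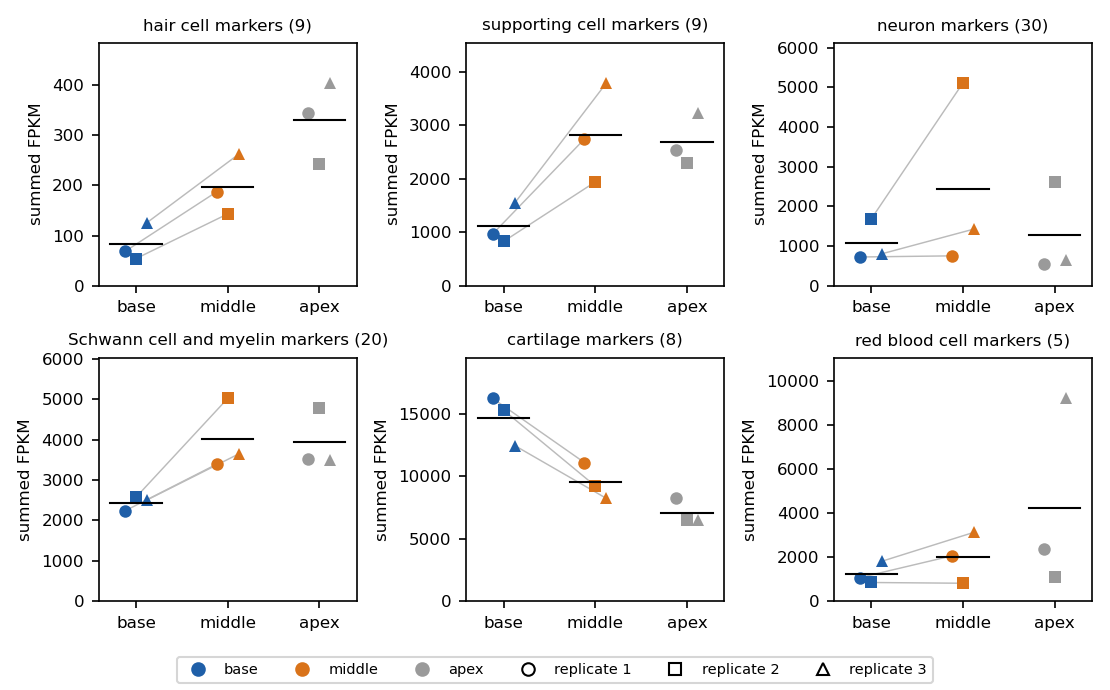
Summed FPKM of 6 marker lists in each library (points, symbol by replicate number), with the region mean as a black bar and grey lines joining base and middle libraries of the same number. Hair cell, supporting cell and Schwann cell sums lay higher in all 3 middle libraries than in any base library, cartilage sums lay lower, and neuron and red blood cell sums overlapped between the regions.

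Genes of mechanotransduction and of the tip link were among those that rose. Of 14 members tested, 5 rose, 35.7% against 2.96% of all genes, and the median log2 fold change was 0.72 against -0.01 over all genes tested. The 5 were *TMC2*, *CIB2*, *PDZD7*, *MYO7A* and *WHRN*. With the block 10 of the 14 rose, where 7.67% of all genes did. *CIB2*, a calcium and integrin binding protein that associates with the transduction channel, had an FPKM of 9.22, 7.46 and 16.8 in the base and 31.1, 22.5 and 45.2 in the middle (ratio 2.95, adjusted p = 0.0288). *PDZD7*, a scaffold of the ankle links, had 6.23, 6.93 and 9.38 in the base and 14.7, 18.8 and 21.8 in the middle (ratio 2.45, adjusted p = 0.0136). *MYO7A*, an unconventional myosin that carries tip link proteins, had 3.94, 4.97 and 8.15 in the base and 10.2, 12.1 and 16 in the middle (ratio 2.25, adjusted p = 0.034). In all 3 genes base 3 was the highest base library and stayed under the lowest middle library. Values for *LHFPL5*, a tip link associated subunit of the complex, were 14.1, 12.1 and 20.2 in the base and 25.9, 19.7 and 33.5 in the middle (log2 fold change 0.73 ± 0.23), and it passed with the block (adjusted p = 9.99e-04) and not without it (adjusted p = 0.0825).

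Of 25 genes of the stereocilia actin bundle, 9 rose (36.0%), 15 with the block, and the median log2 fold change was 0.59. *FSCN2*, an actin crosslinker, had 13.8, 11.4 and 35.5 in the base and 64.4, 39.9 and 90.7 in the middle (ratio 3.21, adjusted p = 0.0455). *ESPN*, the actin bundling protein espin, had 13.7, 10.5 and 24.6 in the base and 43.1, 31.9 and 58 in the middle (ratio 2.73, adjusted p = 0.0326). The motor *MYO15A*, which delivers proteins to stereocilia tips, had 8.46, 4.91 and 16.5 in the base and 26.6, 23.8 and 42 in the middle (ratio 3.09, adjusted p = 0.0367). Middle 3 was the highest and middle 2 the lowest middle library in each of them. *MYO1H*, a class I myosin, rose 2.75-fold, and *BAIAP2L2*, a membrane-binding protein of stereocilia tips that shares its locus entry with another gene, 3.7-fold. The others that rose were *ELMOD1*, *MYO3A*, *PLS1* and *MYO6*. In fits lacking the block, no member of either list was called in the fit without base 1, without base 2 or without middle 3, while up to 6 of the mechanotransduction and 12 of the actin bundle genes were in the fits without another library. Without middle 2 the counts were 5 and 12, and with the block and without replicate number 2 they were 7 and 15.

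At the ribbon synapse 4 of 16 genes rose (25%), and 13 did with the block, with a median log2 fold change of 0.94, the largest median of the 33 function lists. *SLC17A8*, the vesicular glutamate transporter of hair cells, had an FPKM of 4.01, 2.53 and 7.41 in the base and 18.4, 13.4 and 25 in the middle (ratio 4.07, adjusted p = 0.0165). *CABP1*, a calcium-binding protein that modulates calcium channels, had 12.3, 14.3 and 17.8 in the base and 24.3, 32.3 and 42.4 in the middle (ratio 2.23, adjusted p = 0.0234). *RIMBP2*, which ties calcium channels to the release site, rose 2.44-fold and *RIMS2*, an active zone protein, 2.64-fold. Base 3 was the highest base library in all 4 genes. In *CABP1*, *RIMBP2* and *RIMS2* middle 2, the library richest in neuron RNA, lay between middle 1 and middle 3, whereas in *SLC17A8* it was the lowest of the middle. Summed over the 18 genes of the list in the table, the level was 206, 290 and 259 in the base and 308, 693 and 428 in the middle. The sum was thus highest in base 2 and middle 2, the libraries richest in neuron RNA. Several of these active zone genes are also used by neurons, and *SLC17A6* of this list is on the neuron list as well. The part of neurons in these genes and in the median was not tested. Without replicate number 2 and with the block, 9 of 16 rose, and without the block none of the list was called without base 1, base 2 or middle 3. Of 6 efferent synapse genes 1 rose, *CHRNA10*, the nicotinic receptor subunit that receives the efferent fibres on hair cells, with 7.84, 5.11 and 17.3 in the base and 42.8, 24.8 and 56.1 in the middle (ratio 4.08, adjusted p = 0.0288), and 3 rose with the block. *CHRNA10* lost its call without base 1, base 2, middle 1 or middle 3.

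Calcium buffering and extrusion genes had a median log2 fold change of 0.54, and 3 of 17 rose, 6 with the block. The 6 included *PVALB*, a buffer that many neurons express, which was highest in middle 2 and is given in the closing section. *CALB1*, the buffer calbindin, was abundant in both regions, with 296, 272 and 656 in the base and 1167, 805 and 1979 in the middle (ratio 3.23, adjusted p = 0.0357). *ATP2A3*, a calcium pump of the endoplasmic reticulum, had 6.34, 5.58 and 10.7 in the base and 26.3, 16.4 and 29.3 in the middle (ratio 3.19, adjusted p = 0.0136). *ATP2B2*, the calcium pump of the hair bundle membrane, had 10.5, 10.7 and 12.7 in the base and 16.3, 23.8 and 20.5 in the middle (ratio 1.79, adjusted p = 0.0154). The base libraries of *ATP2B2* differed little, and in the middle the highest was middle 2. Among 35 calcium, sodium, TRP and HCN channel genes, 3 rose and 9 did with the block. Besides *SCN3B* they were *MCOLN3*, a hair cell cation channel, with 7.14, 7.42 and 13.8 in the base and 21.5, 16.3 and 35.7 in the middle (adjusted p = 0.0367), and *CACNA1B*, which encodes the pore of N-type calcium channels, with 0.223, 0.376 and 0.988 in the base and 1.91, 2.44 and 2.89 in the middle (adjusted p = 0.0165). Without the block, no gene of either list was called without base 1, base 2 or middle 3, and 5 of each were without middle 2. *SCN1A* and *SCN8A* are on both the channel list and the neuron list, and the part of neurons in these lists was not tested.

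Potassium channel genes did not move together. Of 25 tested, 1 rose and 1 fell, with a median log2 fold change of 0.08, and 7 rose with the block. *KCNA10*, a voltage-gated channel, was low in both regions, with 0.437, 0.0878 and 0.331 in the base and 1.56, 1.21 and 2.22 in the middle (log2 fold change 1.04 ± 0.19, adjusted p = 0.0194). *KCNK5*, a background leak channel, had 18.6, 18 and 15.8 in the base and 12, 11.2 and 11.2 in the middle (log2 fold change -0.56 ± 0.08, adjusted p = 0.0114). The regions did not overlap in either gene. Of 11 hair cell transcription factors, *ISL1*, a LIM homeodomain factor, rose from 7.13, 5.14 and 13.2 to 28.4, 24.5 and 45.6 (ratio 3.86, adjusted p = 0.0165), and 6 rose with the block, beside a median log2 fold change of 0.48. In unblocked fits, no gene of these lists was called without base 1, base 2 or middle 3, while 3 potassium channels rose without middle 1 and 4 transcription factors without base 3 or without middle 2.

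Genes of supporting cell and sensory epithelium identity rose, 6 of 23 (26.1%), or 11 with the block, with a median log2 fold change of 0.53. *HES5*, a Notch effector that represses hair cell fate, had 1.1, 0.985 and 1.41 in the base and 7.64, 4.74 and 7.02 in the middle. All base libraries lay between 0.985 and 1.41 and all middle libraries above 4, and the ratio of means was 5.54 (log2 fold change 1.77 ± 0.19, adjusted p = 0.00654). *SOX2*, the transcription factor of prosensory and supporting cells, had 4.42, 4.2 and 7.67 in the base and 14.7, 13.5 and 18.4 in the middle (ratio 2.86, adjusted p = 0.0104). *HEY2*, another Notch-related repressor, had 8.7, 8.95 and 13.1 in the base and 25, 21.4 and 34.4 in the middle (ratio 2.63, adjusted p = 0.0129). *MSX1*, a homeobox factor, was under 1 in the base with 0.29, 0.359 and 0.096 and had 2.25, 1.89 and 1.85 in the middle (adjusted p = 0.00707). *HES5* and *MSX1* were called in 9 of the 9 fits that left out 1 library, *SOX2* in 7 and *HEY2* in 6. *SALL3* and *DLX5* also rose. Of 19 Notch pathway genes 3 rose, *HES5*, *HEY2* and *DNER*, a transmembrane Notch ligand, which had 58.8, 61.3 and 90.9 in the base and 150.1, 171 and 218 in the middle (ratio 2.56, adjusted p = 0.00935), and 5 rose and 1 fell with the block. Without the block, 2 genes of the supporting cell list rose without base 2 or middle 3 and 8 without middle 1 or middle 2, and 1 of the Notch list rose without base 2 and 5 without middle 2.

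The tectorial membrane list split. *TECTA*, *TECTB* and *OTOA* rose, 3 of 8, while 3 members had an unadjusted p under 0.05 in the other direction and the median log2 fold change was 0.07. Its collagens include *COL9A1*, also a cartilage marker, which had a lower fitted value in the middle (given below). The part of cartilage in this split was not tested. *TECTA*, alpha tectorin, had 80.8, 64.6 and 169 in the base and 291, 236 and 429 in the middle (ratio 3.04, adjusted p = 0.0274). *TECTB*, beta tectorin, was the most abundant DEG that rose, with 738, 630.2 and 1212 in the base and 2254, 1525 and 3142 in the middle (ratio 2.68, adjusted p = 0.0311). *OTOA*, otoancorin, which anchors the membrane to the epithelium, had 186, 192 and 233 in the base and 335, 285 and 386 in the middle (ratio 1.64, adjusted p = 0.0212). Base 3 and middle 3 were the highest of their regions for *TECTA* and *TECTB*, which are both also supporting cell markers. The apex means of *TECTB* and *OTOA* were 2014 ± 384 and 289.7 ± 29.7, against 2307 ± 809.7 and 335 ± 50.9 in the middle. *TECTB* was the only DEG among 7 genes listed for the otoconia and the lagena, the vestibular organ at the apical end of the duct, of which 2 rose and 1 fell with the block. No tectorial membrane gene was called without base 1, base 2 or middle 3 in fits without the block.

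Of 24 FGF signalling genes 8 rose (33.3%), namely ligands, targets and the receptor-like *FGFRL1*, but no receptor with a kinase. With the block 9 rose and 1 fell, and the median log2 fold change was 0.35. The ligands were *FGF3*, *FGF10*, *FGF1* and *FGF9*. *FGFRL1*, a receptor-like protein that lacks the kinase and that shares its locus entry with another gene, had 6.29, 5.94 and 13.6 in the base and 24.6, 18.3 and 33.5 in the middle (ratio 2.96, adjusted p = 0.0259). *ETV4*, a transcription factor induced by FGF signals, had 3.57, 4.29 and 10.4 in the base and 14.2, 13.6 and 18.6 in the middle (ratio 2.55, adjusted p = 0.0402), and its apex mean was 38.2 ± 8.53. The targets *ETV5* and *SPRY4*, the latter a feedback inhibitor, also rose. Of *FGFR3*, the receptor of supporting cells, values were 43.5, 35.2 and 44.5 in the base and 54.8, 40.8 and 65.4 in the middle (log2 fold change 0.36 ± 0.18, adjusted p = 0.24, ratio 1.31), and with the block its adjusted p was 0.00806 at a ratio below the fold criterion. Without the block, no gene of the list was called without base 2 or without middle 3, and 6 rose without middle 2.

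Other signalling pathways held DEGs in both directions. Of 33 BMP and TGF beta genes, 2 rose and 3 fell (9.09% against 1.46% of all genes), and the median log2 fold change was -0.18, with 20 of 33 lower in the middle. *BMPR1B*, a type I BMP receptor, had 47.7, 41.5 and 37.4 in the base and 29.4, 26.3 and 22.2 in the middle (base to middle ratio 1.62, adjusted p = 0.0289). *GREM1*, a secreted BMP antagonist, had 56.1, 37.6 and 46.6 in the base and 31.5, 19.4 and 20.8 in the middle (base to middle ratio 1.96, adjusted p = 0.0336). The ligand *BMP5* fell from 3.78 ± 0.141 to 2.37 ± 0.0415. In the opposite direction *ID4*, a target gene of BMP signals, had 61.4, 62.1 and 74.3 in the base and 129.6, 88.6 and 147 in the middle (ratio 1.84, adjusted p = 0.0326), and *FST*, the activin antagonist follistatin, had 2.97, 3.89 and 4.34 in the base and 5.53, 8.43 and 7.0 in the middle (ratio 1.87, adjusted p = 0.0313). The 2 secreted antagonists thus differed in direction, and 5 of the list rose with the block. In fits lacking the block, no gene of the list was called without base 1, base 2 or middle 3, and without middle 2 the list had 3 that rose and 1 that fell.

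In the retinoic acid pathway, the enzyme that degrades the ligand rose while a retinaldehyde reductase and a receptor fell. *CYP26B1*, the degrading enzyme, had 23.7, 14.3 and 21.6 in the base and 56.7, 32.1 and 43.1 in the middle (ratio 2.21, adjusted p = 0.0282), and its apex libraries had 31.1, 23.1 and 24.8. Its apex mean of 26.4 ± 4.23 thus lay near the base mean of 19.9 ± 4.94. *DHRS3*, the reductase, had 168, 159.9 and 127 in the base and 114, 95.1 and 88.3 in the middle (base to middle ratio 1.53, adjusted p = 0.033). *RARB*, a retinoic acid receptor whose locus entry is shared with another gene, had 57.2, 53.9 and 50.4 in the base and 39.4, 32.9 and 34.9 in the middle (base to middle ratio 1.51, adjusted p = 0.00888). Neither *DHRS3* nor *RARB* was called without middle 2, nor with the block and without replicate number 2. They also lost their call without base 1 or middle 3, *DHRS3* in addition without base 2 or apex 3, and *CYP26B1* without base 1, base 2, middle 1 or middle 3. Of 17 genes of the pathway, 13 had a lower fitted value in the middle.

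Of 44 Wnt and planar polarity genes, 2 rose and 4 fell, or 5 and 5 with the block, and 31 had a lower fitted value in the middle, with a median log2 fold change of -0.17. *RSPO2*, a secreted enhancer of Wnt signalling, had 15, 22.7 and 20.6 in the base and 7.18, 8.63 and 9.27 in the middle (base to middle ratio 2.33, adjusted p = 0.0196). *FZD4*, a Wnt receptor that is also used by endothelium, had 15.6, 16.8 and 18.5 in the base and 9.52, 10.7 and 9.05 in the middle (adjusted p = 0.0118), and 16.2, 18.9 and 14.4 in the apex. *FAT4*, a giant cadherin of planar polarity, fell from 9.8 ± 0.153 to 6.17 ± 0.143, and *SFRP4* fell as above. *FZD3*, a receptor of planar polarity signals, had 3.34, 2.99 and 4.25 in the base and 5.56, 6.3 and 6.57 in the middle (ratio 1.74, adjusted p = 0.0165). *SFRP2*, a secreted antagonist like *SFRP4*, rose from 50.4 ± 6.87 to 76.7 ± 9.31. Of the Iroquois homeobox genes, all 5 tested had a lower fitted value in the middle and 1 fell, *IRX2*, with 35.6, 38.4 and 31.2 in the base, 18.5, 19 and 14.4 in the middle and 3.46, 5.88 and 5.93 in the apex (base to middle ratio 2.03, adjusted p = 0.0196). The list had the lowest median of the 33, at -0.43. Without the block, no Wnt gene rose without base 1, base 2 or middle 3 and 5 did without middle 2, while 2 fell without base 2 or middle 3 and 5 without middle 1. *IRX2* lost its call without base 1, base 2 or middle 3.

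Among 30 neurotrophic factors and axon guidance ligands, the 3 that fell included the repellent semaphorins *SEMA3D* and *SEMA3A*. *SEMA3D* had 45.8, 50.4 and 65.7 in the base and 27.6, 25.7 and 27.7 in the middle (base to middle ratio 2.0, adjusted p = 0.0151), and *SEMA3A* had 28.4, 31.5 and 24.1 in the base and 16, 18.2 and 13.6 in the middle (base to middle ratio 1.76, adjusted p = 0.0233). The regions were well apart in both genes, and middle 2 was the lowest middle library for *SEMA3D* and the highest for *SEMA3A*. *NTN3*, a netrin, had 2.99, 2.65 and 3.63 in the base and 2.11, 1.19 and 1.5 in the middle (adjusted p = 0.0447). *DRAXIN*, a repulsive guidance protein, rose from 3.44 ± 0.516 to 6.29 ± 0.822, and *CNTF*, the ciliary neurotrophic factor, which Schwann cells make and whose locus entry is shared with another gene, from 9.24 ± 0.888 to 15.5 ± 0.808. In unblocked fits, no gene of the list was called without base 2 or middle 3, and 4 rose without base 3.

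Small leucine-rich proteoglycans had lower levels in the middle in sum. The 16 small leucine-rich proteoglycans in the table summed to 16191, 15768 and 12862 FPKM in the base and 11757, 10183 and 8890.0 in the middle, without overlap. *CHAD* and *EPYC*, given below, made up most of this sum, and the sum of the other members was not examined. Of 13 tested 2 fell and none rose, or 4 and 1 with the block, with a median log2 fold change of -0.36. In the other direction *LUM*, lumican, had 204, 229 and 199.6 in the base and 304, 266 and 307 in the middle (ratio 1.39, adjusted p = 0.0252), below the fold criterion. *CHAD*, chondroadherin of cartilage, had 6517, 6628 and 5313 in the base and 4266, 3876 and 3404 in the middle (base to middle ratio 1.6, adjusted p = 0.0409), but its locus entry is shared with another gene. *FMOD*, fibromodulin, had 72.4, 77.5 and 86.8 in the base and 53, 56.7 and 42.3 in the middle (base to middle ratio 1.56, adjusted p = 0.0286). Values of *EPYC*, the cartilage proteoglycan epiphycan, were 4822, 4538 and 3362 in the base and 3224, 2572 and 2167 in the middle, and it passed with the block (adjusted p = 0.00222) and not without it (adjusted p = 0.0853). *CHAD* and *EPYC* are themselves on the cartilage marker list, and the other 6 cartilage markers summed to 0.705 times the base level. The part of cartilage in the result was not tested. Without the block, no gene of the list was called without base 1, base 2 or middle 3, and without middle 2 the list had 1 that rose and 1 that fell.

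The 34 collagens summed to 18385 to 23718 FPKM in the base and 13182 to 16926 in the middle, and the fitted value was lower in the middle for 21 of 31 tested. The 2 collagen DEGs nevertheless rose, and with the block 1 collagen fell beside 2 that rose. *COL22A1*, a collagen of tissue junctions, had 2.67, 1.94 and 3.28 in the base and 5.66, 5.45 and 6.55 in the middle (ratio 2.24, adjusted p = 0.0127), and *COL14A1*, a fibril-associated collagen, rose 1.87-fold with a shared locus entry. The abundant *COL9A1*, of cartilage, had 3729.9, 3208 and 2834 in the base and 2718, 2182 and 2018 in the middle (log2 fold change -0.50 ± 0.17, adjusted p = 0.107). Of 31 basement membrane and integrin genes 2 rose, *ITGA6* with 20.9, 20.3 and 23.9 in the base and 30.4, 41.1 and 37.3 in the middle (adjusted p = 0.0165) and *ITGB4* with 8.0, 7.55 and 9.99 in the base and 12.9, 15.5 and 14.5 in the middle (adjusted p = 0.0132). They encode the alpha and beta chains of one laminin receptor, which anchors epithelia and is also present on Schwann cells, whose markers were higher in the middle. The part of Schwann cells in these 2 genes was not tested. In fits lacking the block, no gene of either list was called without base 1 or middle 3, and without middle 2 the collagens had 1 that rose and 2 that fell.

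Of 37 metalloproteinases and their inhibitors 4 fell (10.8%) and 1 rose, or 6 and 3 with the block, and their summed level was 4394 to 4671 in the base and 3079.9 to 3789 in the middle. Besides *CPA6*, *TIMP4*, an inhibitor whose locus entry is shared, had 159, 183 and 155 in the base and 103, 96.6 and 87.4 in the middle (base to middle ratio 1.73, adjusted p = 0.00707). *ADAMTSL3*, a matrix protein related to the ADAMTS proteases, had 8.27, 9.52 and 9.91 in the base and 4.04, 4.96 and 3.58 in the middle (base to middle ratio 2.2, adjusted p = 0.0148), and *ADAMTS2*, the procollagen N-propeptidase, had 76.3, 76.5 and 71.2 in the base and 52.1, 53.8 and 40.2 in the middle (base to middle ratio 1.53, adjusted p = 0.0165). *ADAMTS5*, an aggrecan-cleaving protease, rose from 2.21 ± 0.201 to 3.32 ± 0.259, a ratio of 1.5 at the edge of the criterion, and was called in 1 of the 9 fits that left out 1 library, that without middle 2. Without the block, 2 genes of the list fell without base 2 or middle 3, and 6 without middle 1.

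Lists of ion transport and of monoamine handling held few DEGs. *GJB1*, a connexin that is also a myelin protein, was the 1 DEG of 10 gap junction genes (2 rose with the block), with 13.3, 16.3 and 15.9 in the base and 28.5, 40.9 and 31.6 in the middle (ratio 2.22, adjusted p = 0.00868), and middle 2 was its highest library. *GJB1* was called in all 9 fits that left out 1 library. The list otherwise leaned the other way, with 7 of 10 genes at a lower fitted value in the middle and a median log2 fold change of -0.22. Its summed FPKM was 354, 357 and 417 in the base and 286, 310 and 290 in the middle. *ATP6V1C2*, a subunit of the proton pump with a shared locus entry, rose 2.11-fold, and *CLDN11*, a claudin of the barrier between stria and perilymph in mammals, had 130.1, 107 and 148 in the base and 80.6, 56.4 and 52.1 in the middle (base to middle ratio 2.04, adjusted p = 0.0151). They were the DEGs among 13 genes of endolymph ion secretion, of which 3 rose and 1 fell with the block. *SLC26A2*, a sulfate transporter that cartilage needs, had 23.1, 21.5 and 19.8 in the base and 15.7, 13.4 and 13.4 in the middle (base to middle ratio 1.52, adjusted p = 0.0114) and was not called without middle 2, base 1, base 2 or middle 3. It was the 1 DEG of 6 SLC26 transporters, of which 2 fell with the block. Of 10 monoamine genes, *HTR1B*, a serotonin receptor, rose from 6.22, 9.89 and 9.09 to 14.4, 23.8 and 19 (ratio 2.27, adjusted p = 0.0246) beside the transporter *SLC6A4*, while 8 of the 10 had a lower fitted value in the middle. Both lost their call without base 1, base 2 or middle 3, and *SLC6A4* also without middle 1. *ATP6V1C2* lost its call without any 1 of these 4 libraries, and *CLDN11* without base 1 or middle 3.

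**Figure D4:**
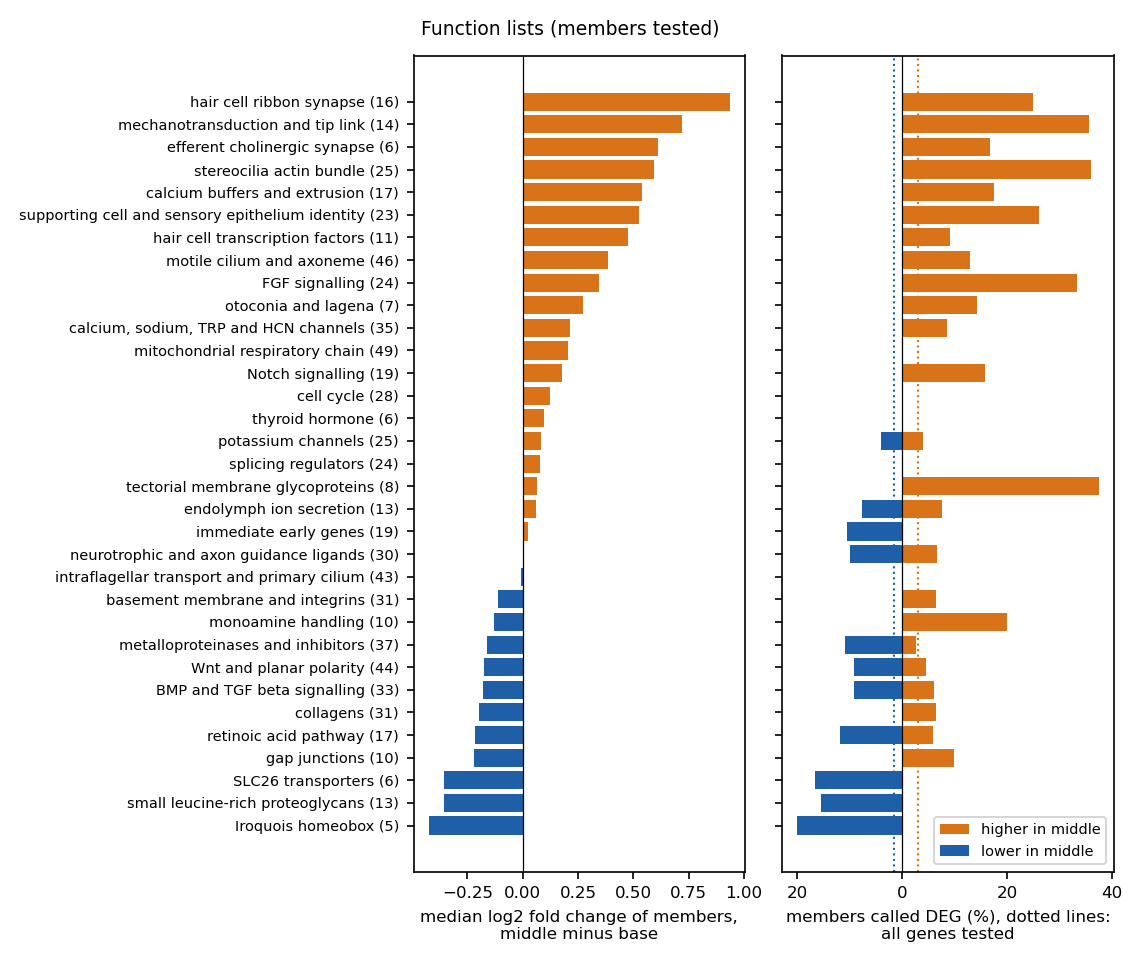
Left, the median log2 fold change (middle minus base) of the tested members of each of 33 function lists, with the number of members in brackets. Right, the percentage of members that were DEGs higher (orange, to the right) or lower (blue, to the left) in the middle, with dotted lines at 2.96% and 1.46%, the shares over all genes tested. Hair cell lists lead at the top with medians up to 0.94, and the Iroquois, proteoglycan and SLC26 lists stand at the bottom. The top list, that of the ribbon synapse, holds genes that neurons also use.

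A few genes of the axoneme rose, and no gene of intraflagellar transport was called. Of 46 genes of the motile cilium and axoneme 6 rose (13.0%), or 18 with the block, and 42 of 46 had a higher fitted value in the middle, with a median log2 fold change of 0.39. *CFAP52*, an axonemal protein, had 0.702, 0.656 and 1.19 in the base and 3.02, 2.17 and 3.33 in the middle (adjusted p = 0.0209). *DNAAF1*, an assembly factor of dynein arms, had 4.07, 3.33 and 4.67 in the base and 6.5, 5.61 and 7.59 in the middle (adjusted p = 0.0409). *NME5* rose from 2.67 ± 0.418 to 4.78 ± 0.976, and *CCDC13* and *EFCAB1* also rose. Without the block, none was called without base 1, base 2 or middle 3, and 11 were without middle 2. Levels were low, with a summed FPKM of 159.5 to 180.1 in the base and 192 to 241 in the middle over 74 genes. Of 43 genes of intraflagellar transport and the primary cilium, none was a DEG in limma, with or without the block. An unadjusted p under 0.05 was found for 9 of the 43, 3 of them higher, beside 3473 of 12901 over all genes. The summed level was 704 to 727 in the base and 686 to 714 in the middle, and the abundant members *IFT20* and *ARL3* had log2 fold changes of -0.09 ± 0.12 and 0.04 ± 0.09.

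Genes of the respiratory chain differed by small amounts. Of 49 tested none was a DEG in limma, with or without the block, but 47 had a higher fitted value in the middle. The median log2 fold change was 0.21. An unadjusted p under 0.05 was found for 18, all of them higher, beside 1683 of 12901 genes that were higher at such a p. *COX6A1*, a subunit of cytochrome oxidase, had 473, 511 and 438 in the base and 591, 607 and 556 in the middle (ratio 1.23, adjusted p = 0.137). *ATP5I*, a subunit of the ATP synthase, had 563, 532 and 508 in the base and 658, 489 and 566 in the middle, which overlapped (adjusted p = 0.704). The lists of the cell cycle, splicing regulators and thyroid hormone held no DEG in limma without the block, and with it 1, 6 and 0 were DEGs, all higher. An unadjusted p under 0.05 was found for 3 of 28, 7 of 24 and 2 of 6 members, beside 3473 of 12901 over all genes. Of 19 immediate early genes 2 fell and none rose, or 3 and 2 with the block. They were *KLF2*, a factor induced by flow in endothelium, from 50.3, 68.2 and 70.9 to 30.9, 38.1 and 34.7 (base to middle ratio 1.83, adjusted p = 0.0442), and *CTGF*, a matricellular target of mechanical signals, from 111, 119 and 146 to 68, 82.3 and 59.8 (base to middle ratio 1.79, adjusted p = 0.0201). Neither was called without base 1, base 2 or middle 3 in fits without the block, and *KLF2* was called in 2 of the 9 fits that left out 1 library.

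Neuron genes differed widely between libraries and none was called without the block. Of 27 neuron markers tested none was a DEG in limma without the block and 13 rose with it, and the median log2 fold change was 1.13. An unadjusted p under 0.05 was found for 6 (4 of them higher), beside 3473 of 12901 over all genes. *NEFM*, a neurofilament subunit, had 39, 219.7 and 42.5 in base 1, 2 and 3 and 66.7, 1160.5 and 207 in middle 1, 2 and 3 (log2 fold change 1.80 ± 1.23, adjusted p = 0.383, and 0.00565 with the block). *NEFL*, the light neurofilament subunit, had 38.2, 210.5 and 45.3 in the base and 58.5, 893 and 180.2 in the middle (log2 fold change 1.55 ± 1.23, adjusted p = 0.452, and 0.012 with the block). Base 2 stood above middle 1 in both genes, so the regions overlapped, although each middle library was higher than the base library of its own number. Within the pairs, the summed neuron markers in the middle were 1.04, 3.04 and 1.77 times those in the base for numbers 1, 2 and 3. With the block and without replicate number 2, 8 of the 27 rose and 1 fell, and without the block 3 rose without middle 1 and none without middle 2. Some abundant members had lower values in the middle in at least 1 pair. *THY1*, a surface protein with a shared locus entry, had 329.5, 526 and 349.6 in the base and 252, 886 and 328 in the middle, and *NTRK2*, a neurotrophin receptor that is also found outside neurons, had 102, 111 and 110.1 in the base and 79.6, 90 and 78.4 in the middle (base to middle ratio 1.31, adjusted p = 0.0206).

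Schwann cell and myelin genes had higher levels in the middle for the most part. Of 18 tested 6 rose (33.3%), or 12 with the block, and the median log2 fold change was 0.68. In all 3 pairs 14 were higher and 3 lower in the middle, beside 3527 and 3783 of all 12901 genes tested. Summed over 20 genes the level was 2234, 2573 and 2504 in the base and 3390.3, 5021 and 3644 in the middle, without overlap, with middle 2 the highest, and 1 of the 20 was at 0 in all 6 libraries. *PMP2*, a fatty acid binding protein of myelin, had 313, 348 and 278 in the base and 692, 845 and 567 in the middle (ratio 2.24, adjusted p = 0.0276). *PMP22*, a protein of compact myelin, had 621, 778 and 744 in the base and 1100.3, 1848 and 1293 in the middle (ratio 1.98, adjusted p = 0.0326). Of the 9 fits that left out 1 library, *PMP2* was called in 3 and *PMP22* in 4. Without middle 2, *PMP22* was still called and *PMP2* was not. *SOX10*, the transcription factor of Schwann and other neural crest cells, had 67.6, 60.9 and 82.9 in the base and 134, 132 and 141 in the middle (ratio 1.92, adjusted p = 0.00707) and was called in 9 of the 9 fits that left out 1 library. *SOX10* was nearly level across the middle libraries, whereas *PMP22* was highest in middle 2. *S100B* rose 2.4-fold, and *FA2H* and *DHH* rose too. Of the 4 members with a lower fitted value 2 had an unadjusted p under 0.05, and 1 had an adjusted p under 0.05, *NGFR*, the low-affinity neurotrophin receptor, with 393, 373 and 347 in the base and 285, 259 and 239.9 in the middle (base to middle ratio 1.42, adjusted p = 0.0216), below the fold criterion. Between 1 and 8 members rose when 1 library was left out, 1 without base 2, 8 without middle 1 and 4 without middle 2, and 7 rose with the block and without replicate number 2.

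**Figure D5:**
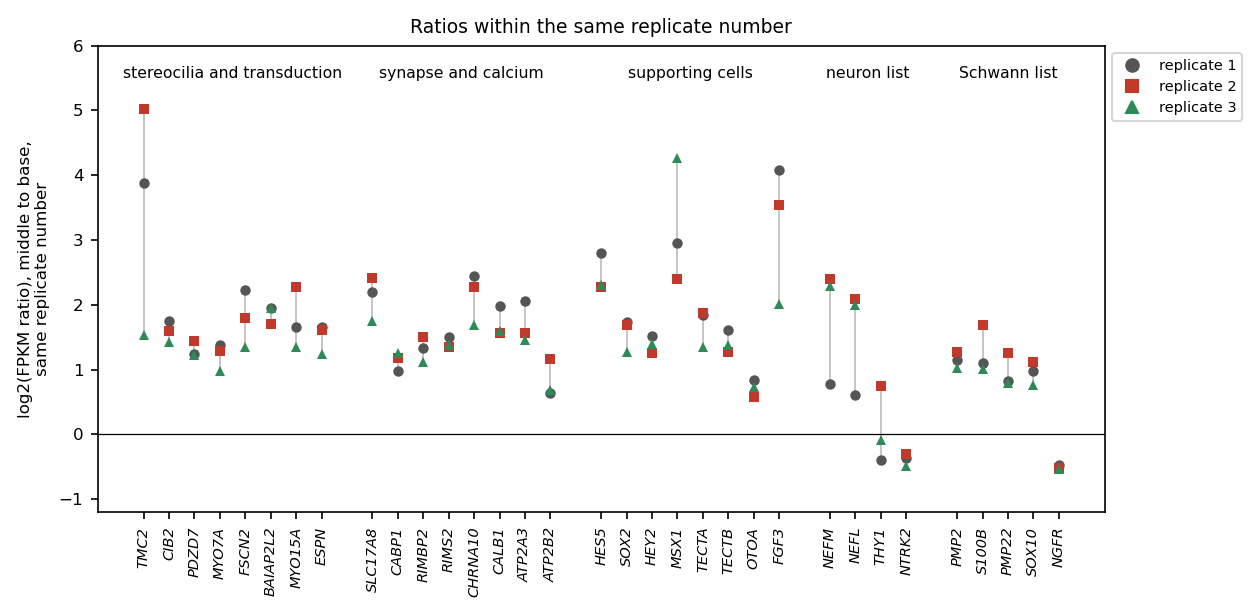
Ratio of middle to base FPKM within libraries of the same replicate number, on a log2 scale, for named members of hair cell, supporting cell, neuron and Schwann cell groups, with one point per replicate number and a grey line from the lowest to the highest. The hair cell and supporting cell genes shown were taken from the DEGs that rose, of which all 382 lay above 0 in all 3 numbers. Of all 12901 genes tested, 3527 did so. *NEFM* and *NEFL*, which were not called without the block, ranged from below 1 to above 2, and *NGFR* and *NTRK2* lay below 0.

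Among the marker lists of other cell types, the ratio of mean sums, middle to base, was 0.901 for macrophages, 0.914 for endothelium, 1.61 for red blood cells and 1.91 for skeletal muscle. The 18 macrophage markers summed to 544 to 592 in the base and 467 to 545 in the middle, and 1 of 16 tested fell, *MARCO*, a scavenger receptor, with 13.6, 16 and 16.4 in the base and 10.2, 10.3 and 9.85 in the middle (base to middle ratio 1.52, adjusted p = 0.0127). The 13 endothelial markers summed to 296 to 302 in the base and 252 to 288 in the middle, and 1 of 12 fell, *KDR*, a receptor of vascular endothelial growth factor, with 23.7, 24.9 and 24.7 in the base and 13.9, 17.1 and 13.5 in the middle (base to middle ratio 1.65, adjusted p = 0.0127), while values of *CLDN5*, a claudin of endothelium, were 121, 121 and 127 in the base and 118, 116 and 109 in the middle. Red blood cell RNA, summed over 5 genes, was 1066, 842 and 1812 in the base and 2053, 808 and 3121 in the middle, which overlapped. None of the 4 tested was a DEG in limma, with or without the block, and 0 had an unadjusted p under 0.05. *MARCO* lost its call without base 2, base 3 or middle 3, and *KDR* without base 2 or middle 3.

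The 9 skeletal muscle markers summed to only 33.6 to 53.7 in the base and 69 to 87 in the middle, and *TNNC1*, a troponin of slow muscle, made up 52.9% to 64.0% of it, with 21.5, 18.8 and 31.9 in the base and 47.4, 41.6 and 51.6 in the middle (ratio 1.95, adjusted p = 0.0213). It was the 1 DEG of 5 tested, and 3 rose with the block. Whether the pieces held skeletal muscle was not tested. *MYH11*, the smooth muscle myosin, had 12.4, 11.8 and 22.1 in the base and 43.3, 27.9 and 53.9 in the middle (ratio 2.7, adjusted p = 0.0243), but the other 7 tested markers of smooth muscle and pericytes had a lower fitted value in the middle, and its apex mean was 17.9 ± 2.62. *TWIST1*, the 1 DEG of 9 fibroblast markers (2 fell with the block), had 62, 45.9 and 42.4 in the base and 37.4, 26.1 and 28 in the middle (base to middle ratio 1.64, adjusted p = 0.0473), and *PTH1R*, a receptor of bone and growth plate with a shared locus entry, had 6.93, 8.78 and 7.34 in the base and 4.13, 4.17 and 4.46 in the middle (base to middle ratio 1.81, adjusted p = 0.0143). *CD3E*, of T cells, rose 1.69-fold and *SLC45A2*, of melanocytes, 2.63-fold, at levels of 13.8 ± 1.84 and 3.54 ± 0.527 in the middle, each the 1 DEG of its list, of 4 and 5 genes tested. *TNNC1*, *MYH11*, *CD3E* and *SLC45A2* all lost their call without base 1, base 2 or middle 3, *MYH11* and *CD3E* also without middle 1, *PTH1R* without base 2 or middle 3, and *TWIST1* was called in 1 of the 9 fits.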

How the data were processed

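Total RNA of dissected pieces of the basilar papilla was enriched with oligo-dT, made into libraries with the Illumina TruSeq RNA kit v2 and sequenced as paired 101-bp reads. The authors aligned the reads to the chicken genome galGal5 with the Ensembl 91 annotation in STAR 2.5.4b, allowing 3 mismatches, and deposited the FPKM values that Cuffdiff 2.2.1 computed per gene and library. How Cuffdiff scaled the libraries against each other and whether strand was used in counting are not given in the sources used here, so overlapping genes are uncertain. Version names come from the submitters' processing notes and the study's methods.

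FPKM of 12901 genes with a mean of at least 1 in base or middle were transformed to log2(FPKM + 1), which understates the change of low genes, and fitted in limma 3.58.1 under R 4.3.3. Region was the only factor and all 9 libraries entered, so that the regions share 1 estimate of the spread, with an intensity trend. The p-values are two-sided, moderated and Benjamini-Hochberg adjusted over all 12901 genes, and they measure the spread between 3 pooled replicates per region. A gene was a DEG where this value was under 0.05 and its mean FPKM differed at least 1.5 times. The code was tested on simulated data. FPKM hold no read counts, so a count model was not used, and the depth of each library is unknown beyond the range that the study gives. The relative number of fragments was estimated from the steps between low values of the same genes.

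The titles number the libraries of each region from 1 to 3, and the study's methods describe 3 pools of chickens, without stating that a number marks the same pool. Deviations from the region means correlated at 0.38 to 0.68 in the 9 same-numbered pairs of libraries (0.40 to 0.50 in the 3 pairs of base and middle). In differently numbered ones they correlated at -0.54 to 0.16, so the replicate number was taken to pair the libraries. Only the fits with the block use this pairing. The main fit, from which the DEGs come, leaves it out.

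The regions compared, the members and the gene lists were chosen with earlier results of these data known, so none is independent evidence. Of 1195 listed symbols 956 were in the table, 10 of them under a synonym in NCBI RefSeq. Named are the 10 DEGs with the largest and the 10 with the smallest log2 fold change outside the neuron and Schwann cell lists, up to 4 DEGs per list and direction, up to 2 members by mean FPKM of a list without DEGs, and up to 4 members by mean FPKM of each marker list. Other DEGs of a list are given by name, and some genes that meet the rule are not reported here. In the closing section, families were chosen after their values were seen. Alternatives were the pseudocount, the filter, the scaling, the trend, the libraries in the fit, a neuron marker covariate and the block. Sequences were not used here.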

Additional observations from a re-analysis of the deposited data

How the results depend on the processing

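The 570 DEGs (382 higher, 188 lower) and the 1096 genes with an adjusted p under 0.05 stayed within 1.5 times under a pseudocount of 0.1, 3 other filters on low values, quantile or median-ratio scaling and no intensity trend. With the replicate block there were 1281 DEGs (989 higher, 292 lower) and 3588 genes with an adjusted p under 0.05. The 6 libraries alone gave 250 (132 higher, 118 lower) and 362, and with the block 1087 (824 higher) and 2236. A neuron marker covariate gave 879 (660 higher) and 1970, and a ratio of at least 2 gave 253 DEGs (209 higher, 44 lower). Leaving out 1 library gave 71 to 691 DEGs, 43 to 505 higher, 27 to 205 lower, and 86 to 1311 genes with an adjusted p under 0.05. Without replicate 2 in every region there were 5 DEGs (3 higher, 2 lower) and 5 such genes.

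The fits with the block that leave out libraries were chosen after seeing the data. Without replicate 1 in every region they gave 962 DEGs (714 higher), and without replicate 2 in every region 1161 (853 higher, 308 lower) and 3477 genes with an adjusted p under 0.05. Without replicate 3 in every region they gave 663 DEGs (516 higher, 147 lower) and 915 such genes, and 421 of the 570 DEGs were among the 663. DEGs, those higher and genes with an adjusted p under 0.05 were 1012, 797 and 2447 without base 1, 1077, 800 and 2912 without base 2, 1145, 868 and 2264 without base 3, 1328, 977 and 2536 without middle 1 (351 lower) and 1129, 832 and 3601 without middle 2 (297 lower). Without middle 3 there were 787, 614 and 1773. Of the 101 named DEGs, none changed direction under the 30 alternatives, and 2446 of 3025 adjusted p-values stayed under 0.05. The block kept all 101, the 6 libraries alone kept 51 and the fit without replicate 2 and without the block kept 2. With the block and without 1 of the 6 libraries compared, 95 to 101 were kept. The causes of these differences were not tested. The depth of each library is unknown, so no limit of detection was set.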

Other observations

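Gene families outside the lists above were looked up after their values were seen, and their counts are a description. Over all genes tested 2.96% rose and 1.46% fell, or 7.67% and 2.26% with the block. Of 20 transcription factors and cofactors of ear patterning, 6 rose (30.0%) and 1 fell (5.0%). *ISL2*, a LIM homeodomain factor related to *ISL1*, had an FPKM of 6.22, 6.88 and 8.89 in base 1, 2 and 3 and 17.2, 17.8 and 24 in middle 1, 2 and 3 (adjusted p = 0.00773). It was called in 9 of the 9 fits that left out 1 library. *TBX1*, a T-box factor, had 14, 15.2 and 21.9 in the base, 39.1, 35 and 37.4 in the middle and 83.5, 52.2 and 61.5 in the apex (adjusted p = 0.0165). *EMX2*, which sets hair bundle orientation in mice and which shares its locus entry with another gene, had 2.69, 4.01 and 8.53 in the base and 15.3, 9.97 and 18.6 in the middle and was called in 3 of the 9 fits. *EYA4* and *RORB* also rose, and *FOXP2* fell from 9.72 ± 0.985 (SD, n = 3) to 5.42 ± 1.13. *HOXA2*, a homeobox factor of hindbrain patterning, fell, with 69.7, 51.4 and 57.6 in the base and 40.5, 35.6 and 32.7 in the middle (adjusted p = 0.0151), and its apex values were 23.1, 21.7 and 23.2.

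Receptors for semaphorins fell beside the ligands *SEMA3A* and *SEMA3D*. Of 8 neuropilins and plexins 3 fell (37.5%), *NRP2* from 101 ± 7.13 to 66.8 ± 9.78, *NRP1* from 39 ± 6.69 to 25 ± 3.78 and *PLXNA2* from 3.61 ± 0.532 to 2.27 ± 0.225. Their adjusted p-values were 0.0413, 0.0493 and 0.0379, and they were called in 3, 1 and 1 of the 9 fits that left out 1 library. Of 6 transmembrane serine proteases of the TMPRSS family 3 rose (50.0%), or 5 with the block. Among them was *TMPRSS3*, a deafness gene in humans, with 2.86, 2.29 and 4.98 in the base and 8.23, 6.34 and 12.5 in the middle (adjusted p = 0.0426). *TMPRSS3* was called in 3 of the 9 fits. Of 50 neurotransmitter and peptide receptors 4 rose (8.0%) and 7 fell (14.0%), or 12 and 10 with the block. *NPY2R*, a neuropeptide Y receptor, had 25.4, 22.2 and 22.4 in the base and 13.5, 10.8 and 10.8 in the middle (adjusted p = 0.00598) and was called in 9 of the 9 fits, and *CASR*, the calcium-sensing receptor, had 36.2, 29.9 and 32.2 in the base and 21.6, 18.1 and 16.3 in the middle (adjusted p = 0.0136). Of 54 heat shock proteins and co-chaperones 5 rose (9.26%), or 9 with the block. *CRYAB*, a small heat shock protein, had 17.1, 20.6 and 19.4 in the base and 32, 52.2 and 42.3 in the middle (adjusted p = 0.0201). It was highest in base 2 and middle 2, the libraries richest in neuron RNA, and the part of neurons in its level was not tested. Only *CRYAB* of the 5 was called without middle 2.

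In the hedgehog pathway 3 of 12 genes rose and 1 fell. The ligand *SHH*, with a shared locus entry, had 0.298, 0.86 and 0.329 in the base and 1.22, 2.81 and 1.5 in the middle (adjusted p = 0.0486). *GLI2*, a transcription factor of the pathway, had 21.7, 18.8 and 19.8 in the base and 13.2, 14.2 and 11.1 in the middle (adjusted p = 0.0209). *SHH* and *DHH*, the latter also on the Schwann cell list, were each called in 1 of the 9 fits that left out 1 library, the fit without middle 1. The last 2 genes were likewise singled out after their values were seen. *PVALB*, the calcium buffer parvalbumin, is on the calcium buffer list above and is expressed by many neurons. It had 17.8, 176 and 17.7 in the base and 48.7, 519 and 138 in the middle (adjusted p = 0.418, and 0.0155 with the block), highest in middle 2. The other, ENSGALG00000028594, a gene without a symbol, was at 3037 FPKM in middle 2 and listed at 0 in the other 8 libraries.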
